A study of Homo sapiens with 8 samples.

Results

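Cells of the human embryonic stem cell line H9 in which HERVH RNA had been knocked down (HERVH KD) were compared with untreated wild-type (WT) cells by RNA-seq. HERVH is a family of endogenous retroviruses, remnants of old germline infections that now stand in many copies in the human genome. In human pluripotent cells a subset of these copies is transcribed, often as long noncoding RNAs that stay in the nucleus and that run into neighbouring unique sequence. ESRG is an annotated noncoding gene of this kind. A GapmeR is a short antisense oligonucleotide with locked nucleic acid (LNA) ends around a DNA core, and RNase H cuts the RNA that pairs with that core.

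The comparison used 4 of the 8 libraries of the series, 2 replicates of HERVH KD and 2 of WT. It covered the 23474 genes that passed the expression filter, of 57773 gene rows. Both groups carried an HA tag on the endogenous CHD7 gene, which encodes a chromatin remodeler. HERVH KD cells were seeded fresh with a ROCK inhibitor, transfected with a lipid reagent and 3 GapmeRs together, and collected after 24 h. WT cells received no oligonucleotide and no transfection reagent, and no library of cells given a control GapmeR was analysed here. Loss of HERVH RNA and the effects of replating, lipid and oligonucleotide therefore cannot be told apart in any value below. The other 4 libraries, 2 of CHD7 knockout cells and 2 of cells with 1 HERVH element deleted, entered the model fit, and with WT they made up the untreated groups of a second contrast. The labels do not say that replicates were separate cultures, so p-values measure the spread between these libraries, which may be technical.

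The 3 GapmeRs are shown because they define which transcripts could be cut directly. Each is 16 nt long and is written 5′ to 3′ in lower case, with no base singled out.
SHHERVH_3: ggaagatttgggacga
SHHERVH_4: attgggacctagctcg
SHHERVH_12: atgtggagtgggtagc

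Exact target sites in the GRCh37 (hg19) genome numbered 246 for SHHERVH_3, 244 for SHHERVH_4 and 621 for SHHERVH_12. Of these 1111 sites, 1109 lay inside an HERVH copy on the list of copies used by the study. Reads on HERVH copies outside annotated genes were not in the gene counts, so in these counts the knockdown could be checked only through genes with HERVH sequence in their exons. The exons of ESRG (chr3:54666149-54673884, minus strand) held 1 site of SHHERVH_4 (chr3:54672531-54672546) and 1 of SHHERVH_3 (chr3:54672668-54672683), both on the transcribed strand.

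Reads on genes came to 21712057 and 21220807 in the WT libraries and to 17784957 and 14802049 in the HERVH KD libraries, so that 3 counts, taken as the floor of detection, stood for 0.138 to 0.218 CPM (counts per 1000000 reads on genes, with libraries scaled by TMM). Replicates differed less in WT, where the SD of log2 CPM had a median of 0.125 over 12702 genes, than in HERVH KD, where it was 0.254. The 2 HERVH KD libraries differed along the GC content of exons. Among genes with a mean log2 CPM above 2, in the fifth with the lowest GC, the median log2 change against the WT mean was 0.04 in KD replicate 1 and -0.34 in KD replicate 2. In the fifth with the highest GC, those medians were -0.16 and 0.47. A loess offset on GC content lowered the median SD to 0.159 in HERVH KD and 0.109 in WT, and its results are given beside the uncorrected ones and named as GC-corrected. The 8 pluripotency markers POU5F1, SOX2, NANOG, LIN28A, DPPA4, TDGF1, DNMT3B and L1TD1 summed to 6256 and 6280 CPM in WT and to 7062 and 7075 CPM in HERVH KD, and none of the 8 passed an FDR of 0.05 in either fit. The close KD sums hid markers that differed between the KD libraries in opposite directions. Before scaling, 15135 reads fell on POU5F1 in KD replicate 1 and 20235 in KD replicate 2. For L1TD1 the order was reversed, with 17872 reads in KD replicate 1 and 7551 in KD replicate 2.

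HERVH KD cells had fewer reads on ESRG and on 5 other noncoding genes whose annotated exons overlap an HERVH copy. They also had fewer on immediate early genes of the FOS family, linker and H2B histones, and several neuronal adhesion, synapse and ion channel genes. They had more reads on VGF, on 2 metallothioneins, on actin-associated and smooth muscle genes, and several secreted regulators of TGF-β and Nodal signalling. A gene was called a differentially expressed gene (DEG) where it changed 2-fold or more with a false discovery rate (FDR) below 0.01 by edgeR's quasi-likelihood test, fitted over all 8 libraries. Against WT, 19 DEGs were higher in HERVH KD (0.0809% of all genes tested) and 32 were lower (0.136%). At an FDR below 0.05, 0.618% of all genes tested were higher and 1.53% lower, and 3.64% and 5.33% with the GC offset. Among protein-coding genes these shares were 0.747% and 2.09%, and 4.65% and 7.37% with the GC offset. In all 51 both KD values lay outside both WT values, which held for 22.5% of all genes tested on the high side and 22.3% on the low side. By this lack of overlap the 51 DEGs had changed in the same direction in both KD replicates, as the plot of the change in each shows.

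**Figure D1:**
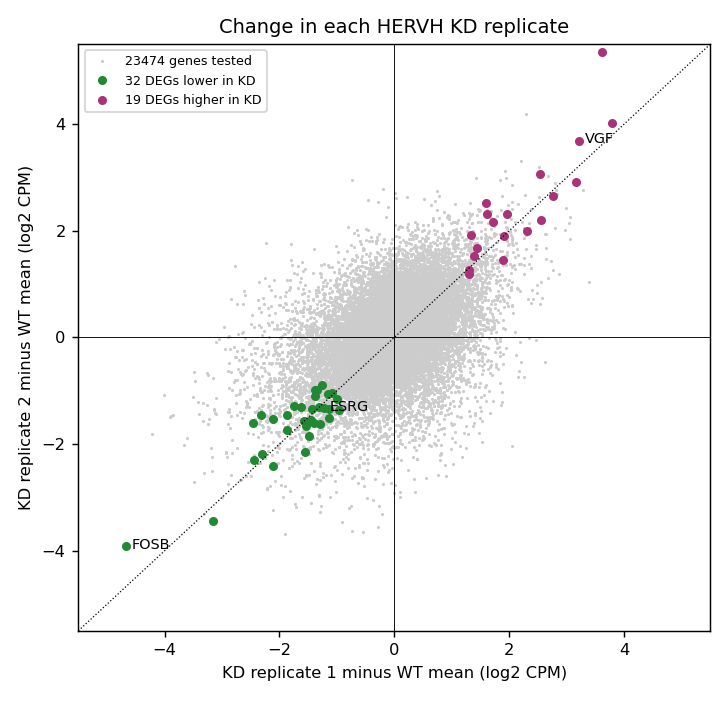
Log2 CPM of HERVH KD replicate 1 (x axis) and replicate 2 (y axis) minus the WT mean for the 23474 genes tested (grey). The 32 lower (green) and 19 higher (purple) DEGs lie to the lower left and upper right near the dotted line of equal change, with VGF at 3.21 and 3.69 and FOSB at -4.67 and -3.92.

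Calls depended on single libraries. Without WT replicate 1 there were 2 higher and 0 lower DEGs, with 398 and 574 genes at an unadjusted p below 0.05 and 2-fold, and without WT replicate 2 there were 5 and 11. Without HERVH KD replicate 1 there were 455 and 370, and without HERVH KD replicate 2 there were 82 and 451. Because both KD values lay outside both WT values, the direction of the 51 genes could hardly turn in these 4 fits. The 51 genes kept it in each. They met the DEG rule again in 2 cases without WT replicate 1, VGF among them, in 14 without WT replicate 2, ESRG, IDO1 and KCNN3 among them, and in 50 and 49 without HERVH KD replicates 1 and 2. With the GC offset there were 93 higher DEGs (0.409%) and 259 lower DEGs (1.14%), and 49 of the 50 DEGs with a GC value were among them. The exception was ATP8A1, whose GC-corrected log2 change was -0.92. Against the mean of the 3 untreated groups, which shares the WT libraries, 141 genes were higher (0.601%) and 164 lower (0.699%). In that contrast the log2 change was 3.54 for VGF, -3.49 for FOSB and -1.07 for ESRG. LINC02751 (-0.26, FDR 0.477), GRM3 (-0.95, FDR 0.0281), GPC3 (-0.82, FDR 0.00403) and RAB13 (0.86, FDR 0.00284), DEGs against WT, did not meet the rule there.

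The level of ESRG was 468 and 337 CPM in WT and 170 and 158 CPM in HERVH KD. The groups did not overlap, and ESRG fell by 1.29 on the log2 scale (SE 0.18, edgeR quasi-likelihood FDR 0.00605), or 2.45-fold, so reads remained on the gene after 24 h. In the other untreated cells its level was 253 and 322 CPM in CHD7 knockout and 384 and 331 CPM in HERVH element deleted cells, all above both KD values. Of 6 annotated genes with an exact GapmeR site in exons on the transcribed strand 3 passed the expression filter, ESRG, LINC00665 and LRRK1. LINC00665, a long noncoding RNA with 1 SHHERVH_12 site (chr19:36753530-36753545), had 99.1 and 114 CPM in WT and 138 and 122 CPM in HERVH KD, a log2 change of 0.29 (SE 0.15, FDR 0.314 by edgeR). LRRK1, which encodes a leucine-rich repeat kinase, held a site of SHHERVH_4 and a site of SHHERVH_12 and had 9.10 and 7.02 CPM in WT and 2.57 and 6.19 CPM in HERVH KD (log2 change -0.90, SE 0.35, edgeR FDR 0.187 and, GC-corrected, 0.0409). Both KD values of LRRK1 lay below both WT values, and its change passed the threshold only after GC correction (-1.01). Of the 3 tested genes with an exact site in the exons, ESRG fell in both fits and LINC00665 passed in neither. Sites were sought in the exons of all annotated transcripts of a gene. Whether the RNAs made in these cells held the sites was not tested.

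Genes whose exons overlapped an HERVH copy by at least 100 bp were examined next, with or without a GapmeR site. The overlap was taken without regard to strand and over the exons of all annotated transcripts. Some of these RNAs may therefore hold the complement of HERVH or no HERVH sequence. In TSIX, GABRP and SCGB3A2, for example, the GapmeR site in the exons lay on the opposite strand. Of 77 such genes tested, 0 rose and 9 fell at an FDR below 0.05 by edgeR, or 11.7%, against 0.618% and 1.53% of all genes tested. At an unadjusted p below 0.05, 4 rose and 24 fell, and by DESeq2 0 rose and 14 fell at an FDR below 0.05. With the GC offset 1 rose and 15 fell, or 19.5% lower, where 3.64% and 5.33% of all genes were called. Both KD values lay below both WT values in 37 of the 77 and above them in 11. The median log2 change was -0.48, and over all genes tested it was 0.04. Among these genes the 46 long noncoding RNAs had a median of -0.62 and 6 fell, whereas the 29 protein-coding genes had a median of -0.02 and 3 fell. Of the 9 genes that fell, 8 had no exact GapmeR site in their exons.

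**Figure D2:**
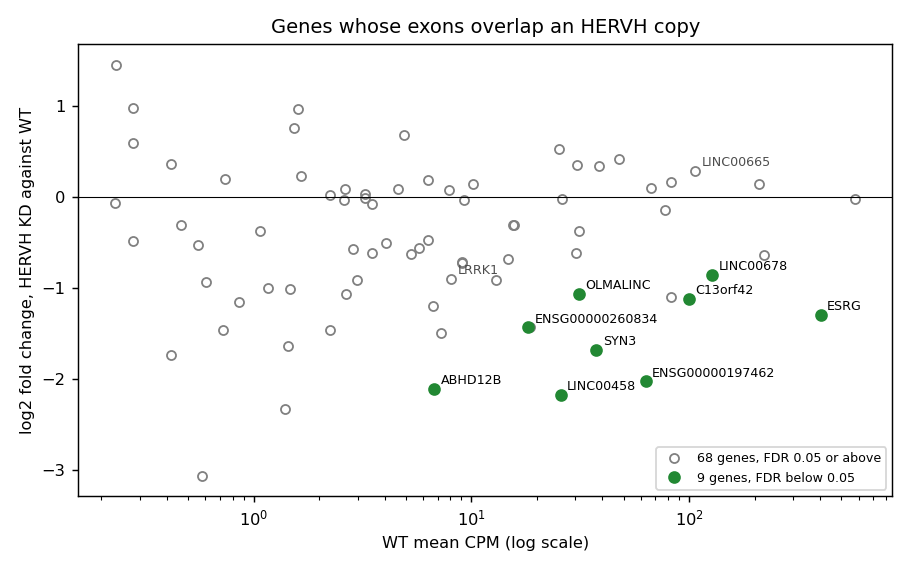
Log2 fold change in HERVH KD (y axis) against the WT mean CPM (x axis, log scale) for the 77 tested genes whose exons overlap an HERVH copy by at least 100 bp. The 9 genes called at an FDR below 0.05 (filled) all lie below 0, while LINC00665, which holds a GapmeR site, lies at 0.29.

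The 9 were ESRG, LINC00458, ENSG00000197462, LINC00678, OLMALINC, ENSG00000260834, C13orf42, SYN3 and ABHD12B, of which all but ESRG, C13orf42 and SYN3 were chosen after their values were seen. LINC00458, a noncoding RNA gene of chromosome 13, had 35.2 and 16.1 CPM in WT and 4.71 and 6.77 CPM in HERVH KD (log2 change -2.17, SE 0.39, edgeR FDR 0.0164). ENSG00000197462 had 81.7 and 44.6 CPM in WT and 13.1 and 18.1 CPM in HERVH KD (-2.02, SE 0.32, edgeR FDR 0.0105). The WT replicates of both genes stood well apart, and no KD value reached a WT value. C13orf42, annotated as protein-coding (chr13:51656255-51774388), had 103 and 95.9 CPM in WT and 44.6 and 47.4 CPM in HERVH KD, close replicates in both groups, and fell by 1.12 (SE 0.15, edgeR FDR 0.00572). SYN3, which encodes the synaptic vesicle protein synapsin III, shared 684 bp of exon with an HERVH copy and went from 42.5 and 32.6 CPM in WT to 10.1 and 13.5 CPM in HERVH KD (-1.67, SE 0.21, edgeR FDR 0.00453). ENSG00000260834 was lower against WT (-1.43, edgeR FDR 0.0213) but not against the mean of the 3 untreated groups (-0.19, FDR 0.651). Its level was 21.3 and 15.3 CPM in WT, 8 and 5.54 CPM in HERVH KD, 18.2 and 20.3 CPM in CHD7 knockout and 1.62 and 0.971 CPM in HERVH element deleted cells, so both KD values were below WT and CHD7 knockout, and the deleted cells alone were lower still.

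Introns can also carry GapmeR sites in nascent RNA. Of 60 tested genes with an exact site in an intron on the transcribed strand, 0 rose and 6 fell at an FDR below 0.05 by edgeR, with a median log2 change of -0.53. Of 122 tested genes with a site on the opposite strand only, which the GapmeRs cannot pair with in the gene's own RNA, 1 rose and 7 fell (5.74%), with a median of -0.34. Of all genes tested, 0.618% rose and 1.53% fell at that FDR, so both sets held a larger share of lower genes. Both medians were below that of all genes tested (0.04). The part of gene length in them was not tested.

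FOSB and FOS encode AP-1 transcription factor subunits that are induced within minutes by serum and growth factors. FOSB (chr19:45971253-45978437) had 38.7 and 21.7 CPM in WT and 1.04 and 1.82 CPM in HERVH KD and fell by 4.43 (SE 0.65, edgeR FDR 0.00733), the largest fall among the DEGs with counts above the floor. FOS had 73.6 and 48.6 CPM in WT and 14.2 and 17.3 CPM in HERVH KD, with no overlap, and fell by 1.96 (SE 0.35, edgeR FDR 0.0164). Of the 28 tested genes on the immediate early list, these 2 fell and 0 rose by edgeR (5 fell and 6 rose at an unadjusted p below 0.05, and 3 and 4 by DESeq2). With the GC offset 5 fell, the others being EGR1 (-1.41), ATF3 (-1.03) and NR4A1 (-0.59), and 3 rose, among them the phosphatase gene DUSP2 (1.15). The median log2 change of the list was -0.2 in KD replicate 1 and 0.3 in KD replicate 2, so the list did not move one way. In CHD7 knockout FOSB had 19.4 and 10.3 CPM (-1.02 against WT, edgeR FDR 0.526) and FOS 54.8 and 38.6 CPM (-0.39, FDR 0.805). In HERVH element deleted cells FOSB had 14.5 and 2.81 CPM (-1.79, unadjusted edgeR p 0.0048). FOS had 35.8 and 14.3 CPM there (-1.28, unadjusted edgeR p 0.00213), and neither gene passed an FDR of 0.05. The lower of these FOS values lay between the KD values, and WT was the highest untreated group for both genes. Against the mean of the 3 untreated groups the KD change was -3.49 for FOSB (edgeR FDR 0.00508) and -1.40 for FOS (FDR 0.0152). Feedback genes of the ERK pathway were split, with DUSP5 higher (0.78, edgeR FDR 0.028) and ETV5 lower (-0.92, FDR 0.027) of 17 tested.

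Neuronal genes were among the lower DEGs, 5 of the 32 being on the list of neuronal cytoskeleton and synapse genes. Embryonic stem cells express many such genes at low level. On that list 6 of 48 tested fell and 1 rose at an FDR below 0.05 by edgeR, or 12.5% and 2.08%. Of all genes 1.53% fell and 0.618% rose, and of protein-coding genes 2.09% and 0.747%. With the GC offset 13 of the 48 fell and 2 rose. Both KD values lay below both WT values in 23 of the 48, and the median log2 change was -0.37. STMN2, a stathmin that acts on microtubules of growing axons, had 12.1 and 7.20 CPM in WT and 1.81 and 1.97 CPM in HERVH KD (-2.35, SE 0.33, edgeR FDR 0.00605). SLITRK3, a synaptic adhesion protein gene, had 4.94 and 3.79 CPM in WT and 0.712 and 0.801 CPM in HERVH KD (-2.53, SE 0.38, FDR 0.00794). CNTN1, which encodes the adhesion molecule contactin 1, had 31.0 and 23.2 CPM in WT and 9.03 and 5.97 CPM in HERVH KD (-1.84, SE 0.24, FDR 0.00523). In each of the 3 genes the lower WT library stood well above the higher KD library.

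MAP2, a microtubule-associated protein of dendrites, had 39.8 and 46.9 CPM in WT and 17.3 CPM in both KD libraries (-1.32, SE 0.18, FDR 0.00603). SLITRK5 fell by 0.93 (FDR 0.0273). The 1 list member that rose was TUBB3, the neuronal β-tubulin, with 4.11 and 6.83 CPM in WT and 13.4 and 21.1 CPM in HERVH KD (1.65, SE 0.37, FDR 0.0366). Of 8 neural markers tested, the progenitor genes NES (0.96, FDR 0.0474) and FABP7 (1.43, FDR 0.0231) rose and 0 fell. Both KD values lay above both WT values in 2 of the 8 and below in 4, with a median log2 change of -0.34. In a fit of only the 4 libraries compared, 0 of the 8 passed an FDR of 0.05. Lower synaptic genes stood beside higher levels of a tubulin and of 2 neural progenitor genes, but not of the neural marker list.

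Other DEGs of the synapse lay outside that list. SYT7, a calcium sensor of exocytosis, fell by 1.5, RAB3C, a small GTPase of synaptic vesicles, by 1.31, and PRKCB, a protein kinase C, by 1.40 (edgeR FDR 0.00848, 0.00661 and 0.00453). GRM3, a metabotropic glutamate receptor gene, had 12.1 and 14.4 CPM in WT and 2.96 and 4.52 CPM in HERVH KD (-1.83, SE 0.28, FDR 0.00834). In CHD7 knockout, in a contrast that shares the WT libraries, the log2 change was -2.55 for GRM3 (FDR 0.000405), -2.00 for STMN2, -4.04 for LINC02751 and -1.79 for PRTG. In HERVH element deleted cells those of the same genes were -0.09, -0.36, -0.21 and 0.45.

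Of 66 ion channel genes tested, 5 fell and 0 rose at an FDR below 0.05 by edgeR (7.58% lower), 29 fell and 2 rose at an unadjusted p below 0.05, 18 fell and 2 rose by DESeq2, and with the GC offset 22 fell (33.3%) and 1 rose. Both KD values lay below both WT values in 38 of 66 and above in 5 (22.3% and 22.5% of all genes), with a median log2 change of -0.50. KCNN3, a calcium-activated potassium channel gene, had 16.3 and 11.4 CPM in WT and 3.07 and 2.48 CPM in HERVH KD (-2.31, SE 0.27, FDR 0.00271). The voltage-gated potassium channel genes KCNQ5 (-2.01, FDR 0.0213) and KCNQ3 (-1.28, FDR 0.037) and the sodium-activated potassium channel gene KCNT2 (-0.90, FDR 0.0309) fell too. The GC-corrected set added calcium channel genes such as CACNA1C (-0.99) and CACNA2D2 (-0.87) and glutamate receptor genes such as GRIN1 (-2.09) and GRIK3 (-1.18), and the 1 that rose was the sodium channel gene SCN2A (1.53).

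Of 45 axon guidance genes tested, 4 fell and 0 rose by edgeR (8.89% lower), 13 fell and 5 rose at an unadjusted p below 0.05, 6 fell and 2 rose by DESeq2, and 9 fell and 2 rose with the GC offset. SEMA5A, a semaphorin, went from 65.0 and 58.5 CPM in WT to 24.1 and 30.9 CPM in HERVH KD (-1.17, SE 0.17, edgeR FDR 0.00773). The netrin receptor gene UNC5A (-1.48, FDR 0.0117), the ephrin receptor gene EPHB2 (-1.14, FDR 0.0133) and the SLIT receptor gene ROBO1 (-0.78, FDR 0.0366) were the other members that fell. Among 271 solute carriers tested, 12 fell (4.43%, against 1.53% of all genes and 2.09% of protein-coding genes) and 1 rose by edgeR. With the GC offset 33 fell and 13 rose, and in a fit of only the 4 libraries compared 2 fell and 0 rose. The median log2 change of the solute carriers was -0.14 in KD replicate 1 and -0.01 in KD replicate 2. SLC1A3, a glutamate transporter, had 106 and 87.4 CPM in WT and 39.1 and 31.0 CPM in HERVH KD (-1.46, SE 0.19, FDR 0.00519), and the calcium exchanger gene SLC24A2 fell by 1.52 (FDR 0.00733). The taurine transporter gene SLC6A6, well expressed at 330 and 299 CPM in WT, had 156 and 177 CPM in HERVH KD (-0.92, SE 0.14, FDR 0.00848).

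**Figure D3:**
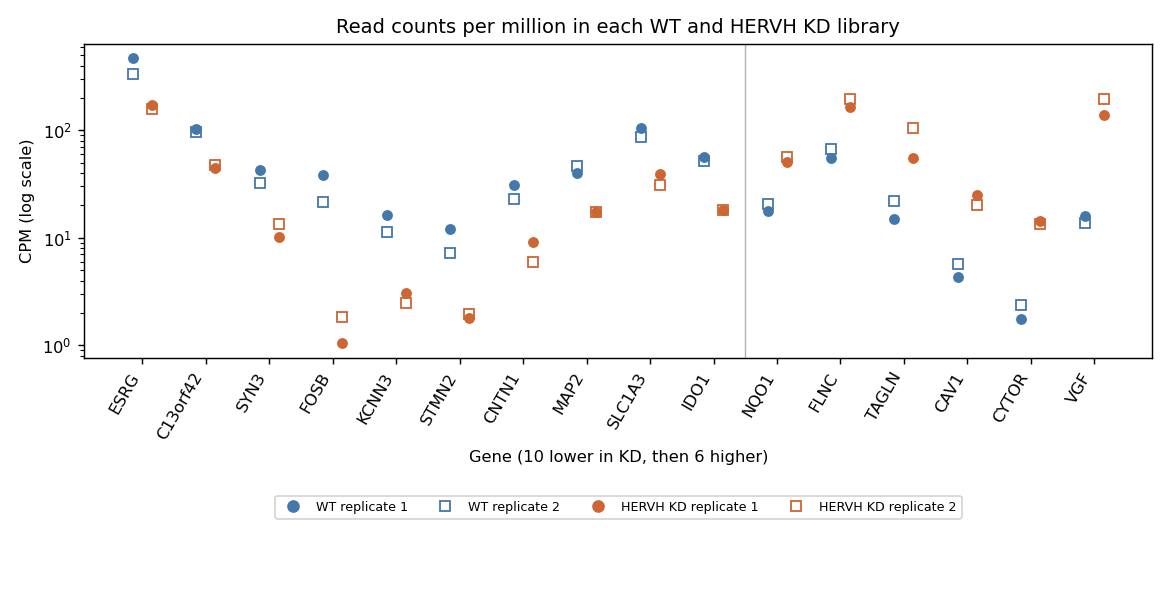
CPM (y axis, log scale) of 16 named genes in WT replicates 1 and 2 (blue) and HERVH KD replicates 1 and 2 (orange), 1 point per library. For the 10 genes to the left of the line both KD points lie below both WT points, and for the 6 to the right both lie above, as for VGF at 139 and 194 CPM against 16.1 and 13.8.

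Long genes and low levels went together in the wider set. Protein-coding genes with a mean log2 CPM above 2 were split into 10 groups of like size by the genomic span of the gene. In the longest group (184600 bp and more) 21% fell and 2.35% rose at a GC-corrected FDR below 0.05 by edgeR. In the shortest group (6907 bp and less) 4.96% fell and 8% rose. The GC-corrected median log2 change in the longest group was -0.16 in KD replicate 1 and -0.26 in KD replicate 2, and in the shortest group it was 0.03 and 0.16. The median span of the 32 lower DEGs was 130 kb, that of the 19 higher DEGs 12.1 kb and that of all genes tested 18.1 kb. SYN3 spans 550561 bp and KCNQ5 577057 bp, whereas FOSB (7185 bp) and ESRG (7736 bp) are short. Many neuronal and ion channel genes are long, and the part of length in the list counts was not tested.

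**Figure D4:**
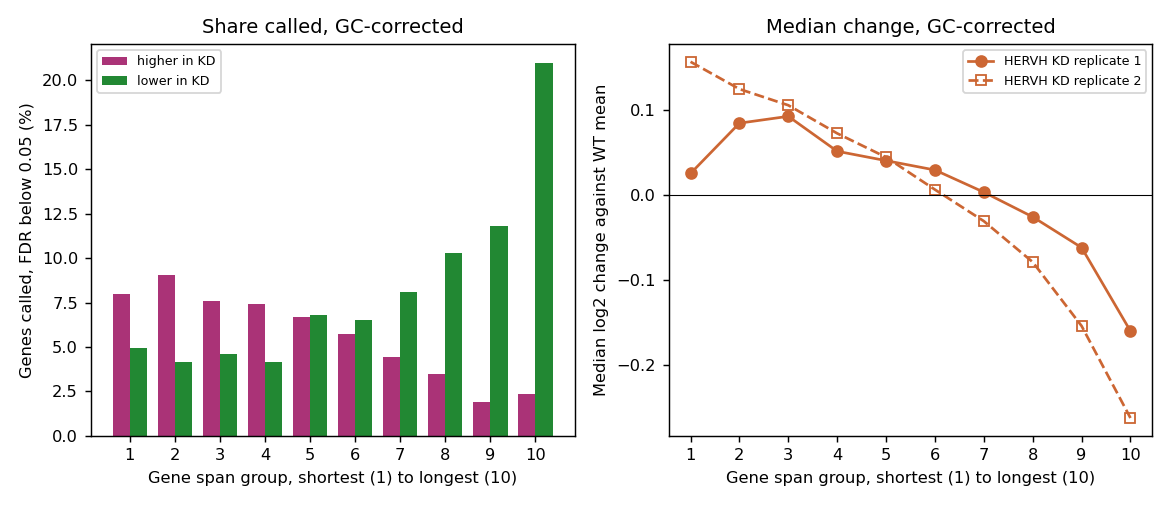
Protein-coding genes in 10 groups of like size by genomic span, shortest to longest. Left, the percentage of each group higher (purple) or lower (green) in HERVH KD at a GC-corrected FDR below 0.05, with 21% lower in the longest group. Right, the GC-corrected median log2 change of each KD replicate against the WT mean, which is lower in the longest group (-0.16 and -0.26) than in the shortest.

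VGF (chr7:100805790-100808850), a neuropeptide precursor stored in secretory granules and a known target of the cAMP response factor CREB, had 16.1 and 13.8 CPM in WT and 139 and 194 CPM in HERVH KD. It rose by 3.48 on the log2 scale (SE 0.21, edgeR FDR 2.75e-06), or 11.1-fold, and the level in CHD7 knockout and HERVH element deleted cells differed from WT by -0.04 and -0.16. Both KD values were far above all WT values. Of 14 genes on the granin and secretory granule list, VGF rose by edgeR and 2 fell, the prohormone convertase gene PCSK2 (5.82 and 3.09 CPM in WT, 0.493 and 1.24 CPM in HERVH KD, -2.40, FDR 0.0213) and its chaperone gene SCG5 (-1.03, FDR 0.0279). Chromogranin A, CHGA, had a log2 change of 0.72 that missed the threshold (FDR 0.0554) and passed with the GC offset (0.59, FDR 0.045). Both KD values lay above both WT values in 6 of the 14 and below in 4, and against the mean of the 3 untreated groups 3 rose and 2 fell.

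The sequence before the VGF start site is shown because it holds the best known regulatory element of this gene. It is taken from RefSeq (GRCh38.p14, chr7:101165630-101165689, minus strand, positions -120 to -61), with the cAMP response element TGACGTCA in capitals at -79.
VGF: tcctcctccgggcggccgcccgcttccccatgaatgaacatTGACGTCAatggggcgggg

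TGACGTCA, which reads the same on both strands, was present in the 250 bases before the start in 1.65% of 35116 RefSeq promoter windows. A match is a description of the sequence and not evidence of binding.

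Metallothioneins are small cysteine-rich proteins that bind zinc and copper. Of 8 tested, 2 rose by edgeR, MT1M and MT2A, and 4 had both KD values above both WT values (22.5% of all genes did). For MT1M, 3 and 0 counts in WT stood against 33 and 86 counts in HERVH KD, at least 29-fold higher than the floor of 3 counts per WT library (edgeR FDR 0.00974). MT2A had 5.03 and 2.48 CPM in WT and 17.8 and 66.1 CPM in HERVH KD, an unequal pair that lay above WT in both (3.47, SE 0.59, FDR 0.013). MT1X, at 1.85 and 0.748 CPM in WT and 0.986 and 1.31 CPM in HERVH KD, overlapped between the groups (-0.19, FDR 0.894). Metallothionein genes are closely similar copies, and reads could be split among them. NQO1, an oxidoreductase induced by oxidative stress, rose from 17.9 and 20.8 CPM to 50.8 and 55.9 CPM (1.46, SE 0.20, FDR 0.00572).

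Metal-responsive elements in the 180 bases before the MT2A start (RefSeq GRCh38.p14, chr16:56608404-56608583, plus strand) are shown in capitals. The letters searched were TGCACNC and TGCGCNC on both strands, which 24.8% of all promoter windows held at least once, and the 250 bases of MT2A held 7 matches.
MT2A: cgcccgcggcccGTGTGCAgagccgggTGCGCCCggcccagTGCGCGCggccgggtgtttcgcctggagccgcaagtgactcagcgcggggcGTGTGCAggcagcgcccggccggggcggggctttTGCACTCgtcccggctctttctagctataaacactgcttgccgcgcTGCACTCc

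Actin-associated and contractile genes were among the higher ones. Of 29 tested targets of actin, SRF and YAP signalling, 4 rose and 0 fell at an FDR below 0.05 by edgeR. The 4 were 13.8%, against 0.618% of all genes and 0.747% of protein-coding genes. At an unadjusted p below 0.05, 10 rose and 2 fell, by DESeq2 7 rose and 0 fell, and with the GC offset 9 rose and 2 fell. TAGLN, the actin-binding protein transgelin of smooth muscle, had 15 and 22 CPM in WT and 55.0 and 105 CPM in HERVH KD (2.11, SE 0.28, FDR 0.00572). ACTG2, smooth muscle γ-actin, rose by 2.09 (FDR 0.027), vimentin, VIM, by 0.89 (FDR 0.0112) and the focal adhesion gene ZYX by 0.72 (FDR 0.0326). ACTG2 did not pass against the mean of the 3 untreated groups (0.92, FDR 0.0808), whereas TAGLN, VIM and ZYX did (FDR 0.000102, 0.000141 and 0.00541).

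DEGs of the cytoskeleton and cell membrane outside the list included FLNC, ACTA1, CAV1 and LCP1. FLNC, which encodes the actin cross-linker filamin C, had 55.4 and 67.5 CPM in WT and 165 and 197 CPM in HERVH KD (1.56, SE 0.17, edgeR FDR 0.00151). ACTA1, skeletal α-actin, had 3.05 and 3.98 CPM in WT and 11.6 and 15.9 CPM in HERVH KD (1.96, SE 0.29, FDR 0.00733). CAV1, the coat protein of caveolae, had 4.34 and 5.75 CPM in WT and 25.1 and 20.2 CPM in HERVH KD (2.17, SE 0.27, FDR 0.00453). LCP1, the actin bundler plastin 2, rose by 2.54 from 0.739 and 0.748 CPM (FDR 0.00956). FLNC was lower in CHD7 knockout (-1.17, FDR 0.00285), the opposite direction, in the contrast with the same WT libraries.

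The actin genes ACTA1, ACTC1 and ACTG2 are classical targets of SRF, which binds the CArG box. The 60 bases from -120 to -61 are shown with each CArG box in capitals (RefSeq GRCh38.p14, ACTA1 chr1:229434155-229434214, minus strand, ACTC1 chr15:34795610-34795669, minus strand, ACTG2 chr2:73892888-73892947, plus strand).
ACTA1: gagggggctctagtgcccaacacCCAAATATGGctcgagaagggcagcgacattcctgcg
ACTC1: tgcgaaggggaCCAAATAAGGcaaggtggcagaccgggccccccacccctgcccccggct
ACTG2: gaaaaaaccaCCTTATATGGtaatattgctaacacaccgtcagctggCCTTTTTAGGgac

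A CArG box stood in 1.16% of the 35116 promoter windows. ACTC1 had 3 annotated windows, of which 1 held the box, and its level rose in the GC-corrected fit (1.06, FDR 0.00843) but not in the uncorrected one (1.06, edgeR FDR 0.0564). The windows of FLNC and CNN1 held none.

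Of 35 targets and regulators of TGF-β, Nodal and BMP signalling tested, 5 rose and 1 fell at an FDR below 0.05 by edgeR. These were 14.3% and 2.86%, against 0.618% and 1.53% of all genes, and with the GC offset 9 rose and 3 fell. The median log2 change of this list was larger in KD replicate 2 (0.42) than in KD replicate 1 (0.16). FST, the activin antagonist follistatin, had 13.8 and 13.1 CPM in WT and 40.5 and 35.4 CPM in HERVH KD (1.49, SE 0.24, FDR 0.0107). The ligand gene TGFB1 had 13.4 and 12.2 CPM in WT and 31.8 and 27.2 CPM in HERVH KD (1.21, SE 0.22, FDR 0.0177), and LTBP1, which holds latent TGF-β in the matrix, fell by 0.95 (FDR 0.0206). CER1, a secreted antagonist of Nodal and BMP made by early endoderm, had 7 and 4 counts in WT and 39 and 38 counts in HERVH KD (3.23, SE 0.69, FDR 0.0309). TAGLN belongs to this list as well.

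Most markers of other lineages had few counts, and the exceptions were DCX, PAX6, MIXL1, KRT7, FOXA2 and AFP. The 5 endoderm markers SOX17, GATA4, GATA6, FOXA2 and AFP summed to 2.12 and 5.79 CPM in WT and to 12.1 and 12 CPM in HERVH KD. Counts of SOX17, GATA4 and GATA6 did not exceed 4 in a library, so the sum was made of FOXA2 (1.66, edgeR FDR 0.072, GC-corrected FDR 0.019) and AFP (1.68, FDR 0.113, GC-corrected FDR 0.0399). Both passed only in the GC-corrected fit, beside CER1. PAX6, SOX1, NEUROG2 and DCX, neural markers, summed to 12.9 and 9.43 CPM in WT and to 8.09 and 6.69 CPM in HERVH KD. The mesoderm markers TBXT, MIXL1, HAND1 and MESP1 summed to 2.40 and 1.31 CPM in WT and to 1.58 and 1.89 CPM in HERVH KD, and the trophoblast markers CDX2, GATA3, CGA, TFAP2A and KRT7 to 6.73 and 7.29 and to 2.84 and 6.62 CPM. The mesoderm gene HAND1 and the trophoblast gene CGA had 0 counts in each of these libraries, which allows the floor given above. Of these, PAX6, DCX, MIXL1 and KRT7 passed the expression filter, and none of the 4 passed an FDR of 0.05 by edgeR in either fit. The part of cells of other types in the results was not tested.

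Of 40 linker and core histone genes tested, 6 fell and 0 rose at an FDR below 0.05 by edgeR (15% lower, against 1.53% of all genes). At an unadjusted p below 0.05, 9 fell and 2 rose, by DESeq2 7 fell and 0 rose, and with the GC offset 12 fell and 0 rose. The list differed between the KD libraries, with a median log2 change of -0.57 in replicate 1 and 0.18 in replicate 2. H1-3 fell by 1.28 (FDR 0.0357), and the H2B genes H2BC5, H2BC18, H2BC21 and H2BC11 fell by 1.32, 0.91, 0.73 and 0.62. H2BC5 had 343 and 258 CPM in WT and 159 and 81.6 CPM in HERVH KD. Replication-dependent histone messages lack a poly(A) tail, and the rRNA-depleted libraries capture them. Of 46 cell cycle and replication genes 0 passed that FDR by edgeR, with 4 higher and 6 lower at an unadjusted p below 0.05, 0 and 1 by DESeq2, and 2 and 3 with the GC offset. Of 78 cytosolic ribosomal protein genes 0 passed by edgeR or DESeq2, with 4 higher and 4 lower at an unadjusted p below 0.05, and 1 higher with the GC offset. The KD libraries differed in this list (median log2 change -0.20 in replicate 1 and 0.20 in replicate 2).

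The integrated stress response is a set of genes that ATF4 induces when amino acids run short or protein folding fails. Of 35 of its targets tested, 3 fell and 0 rose by edgeR, 14 fell and 1 rose at an unadjusted p below 0.05, 8 fell and 0 rose by DESeq2, and with the GC offset 14 fell (40.0%) and 0 rose. The median log2 change was -0.62 in KD replicate 1 and -0.18 in KD replicate 2. CHAC1, a glutathione-degrading enzyme gene, had 54.0 and 40.3 CPM in WT and 15.1 and 20.3 CPM in HERVH KD (-1.42, SE 0.28, FDR 0.0226). STC2, a secreted glycoprotein gene, fell by 0.99 (FDR 0.0421) and the serine synthesis gene PSAT1 by 0.62 (FDR 0.0407). ASNS, asparagine synthetase, had 239 and 166 CPM in WT and 98.9 and 124 CPM in HERVH KD, and passed only with the GC offset (-0.79, FDR 0.0136). The unfolded protein response list had 0 of 20 members past the threshold by edgeR and DESeq2, with 3 higher and 1 lower at an unadjusted p below 0.05 and 1 higher with the GC offset. Whether the lists differ was not tested.

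In a fit of only the 4 libraries compared, 26 genes were higher (0.12%) and 31 lower (0.143%) at an FDR below 0.05 by edgeR. Of the lists above, 5 neuronal cytoskeleton and synapse genes and 4 genes whose exons overlap an HERVH copy were among the lower ones. Also lower were 1 gene each of the ion channel, histone and integrated stress response lists, and 0 of the axon guidance list. Of the TGF-β, Nodal and BMP list 4 genes were among the higher ones, of the metallothioneins 2, and of the actin, SRF and YAP list 1.

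**Figure D5:**
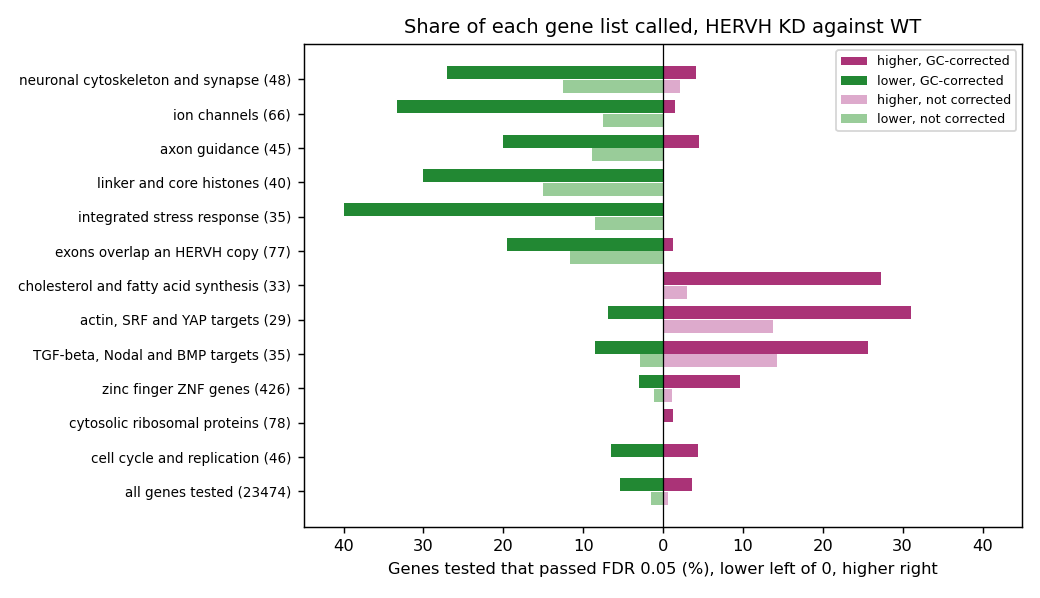
Percentage of the tested members of each gene list (number tested in brackets) that were lower (left of 0) or higher (right of 0) in HERVH KD at an FDR below 0.05, in the GC-corrected (dark) and uncorrected (light) fits. The integrated stress response (40.0% lower) and ion channel (33.3% lower) lists extend furthest to the left in the GC-corrected fit, and all genes tested, 22744 of them with a GC value, reach 5.33%.

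The remaining DEGs were single genes of other functions. IDO1, which starts the breakdown of tryptophan to kynurenine, had 56.8 and 51.9 CPM in WT and 18.2 and 18.3 CPM in HERVH KD, with close replicates in both groups (-1.57, SE 0.17, edgeR FDR 0.00151). Of 40 interferon response and RNA sensing genes tested 0 rose and 0 fell by edgeR, with 1 higher and 7 lower at an unadjusted p below 0.05, 0 and 1 by DESeq2, and 1 and 3 with the GC offset. The median log2 change of that list was -0.13. NCKAP1, of the actin-regulating WAVE complex, went from 438 and 394 CPM in WT to 214 and 162 CPM in HERVH KD (-1.15, FDR 0.00572). The glypican gene GPC3 (-1.06), the translocase gene HLTF (-1.27), the transcriptional repressor gene BCL6B (-1.86), the membrane collagen gene COL25A1 (-1.63), the immunoglobulin superfamily gene PRTG (-1.51) and the flippase gene ATP8A1 (-1.07) also fell, as did TRANK1 (-1.85), RHOBTB3 (-1.25), C1orf21 (-1.08) and LINC02751 (-1.68). ENSG00000272796, without a position in the annotation used, was counted 38 and 39 times in WT and 2 times and 1 time in HERVH KD, at least 9.37-fold lower against the floor.

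Among the remaining higher DEGs, the long noncoding RNAs CYTOR and MIR4435-2HG rose from 1.75 and 2.39 to 14.4 and 13.3 CPM and from 1.85 and 2.39 to 19.5 and 16.5 CPM (2.74 and 3.09, edgeR FDR 0.00271 and 0.00109). They are near-identical copies on chromosome 2, and which of them the reads came from is uncertain. SNORD3B-2, a copy of the U3 small nucleolar RNA that guides pre-rRNA cleavage, rose by 1.97 (FDR 0.00733) with the same uncertainty. SPP1, the secreted phosphoprotein osteopontin, rose by 1.66, the 14-3-3 gene SFN by 2.23, GLIPR1L1 by 2.83, the small GTPase gene RAB13 by 1.23, the lipid phosphatase gene SYNJ2 by 1.25, the Gag-like gene RTL5 by 1.69 and the zinc finger gene ZNF239 by 1.86. RAB13 (1.01), ZNF239 (1.24), LCP1 (2.25) and SFN (1.47) were also higher in CHD7 knockout at an FDR below 0.05, in the contrast that shares the WT libraries.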

How the data were processed

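RNA-seq of H9 cells was analysed from read counts per gene. Libraries made by the authors were depleted of rRNA and kept the strand, STAR aligned the reads to hg19, and HTSeq-count assigned them to Ensembl genes. The deposited counts are whole numbers without normalization. Tool versions and the strand setting of the counting are not given in the sources used here, so reads of overlapping genes may be shared. HTSeq summary rows were left out (unassigned reads outside genes, 35.9% to 42.5% in the 4 libraries compared).

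Counts were scaled by TMM and filtered by filterByExpr, and groups were compared by edgeR's quasi-likelihood test over all 8 libraries (4 residual degrees of freedom), with Benjamini-Hochberg FDR over all genes tested. CPM used no pseudocount, and log2 CPM used a prior count of 2. The GC correction was a loess offset with a span of 0.3 on exonic GC content, for 22744 genes. Positions and exons came from GENCODE on GRCh37, which placed 55538 gene rows (96.1%). Promoters came from RefSeq. Fits were run in edgeR 4.0.16 and DESeq2 1.42.0 (R 4.3.3, limma 3.58.1), and tables and plots were made in Python 3.11.15 (numpy 2.4.6, pandas 2.3.3, matplotlib 3.10.9). On simulated counts of HERVH KD against WT (22610 genes) the test recovered 35 of 105 genes changed 2-fold and 83 of 95 changed 4-fold, with 2 false calls. The simulation gave every group the same dispersion per gene and no GC trend, and changed only genes above an expression cutoff. It left out the larger spread and the GC difference of the HERVH KD libraries, so these rates may not hold for the real comparison.

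Named were ESRG, VGF and FOSB, of the DEGs without overlap between groups the 12 that rose most and the 12 that fell most, DEGs on a list, up to 3 list members with the lowest p, genes with a GapmeR site in exons and the 6 genes with the lowest GC-corrected p. The other genes were chosen after their values were seen. The members and lists were chosen with earlier results of these data known. Alternatives were other scalings, filters, tests and thresholds, a replicate block, GC and length offsets, and leaving out each library. Not every gene taken by these rules is reported here.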

Additional observations from a re-analysis of the deposited data

How the results depend on the processing

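The HERVH KD DEGs numbered 19 higher and 32 lower against WT, and 141 higher and 164 lower against the mean of the 3 untreated groups. Against WT the higher and lower counts were 26 and 55 with RLE scaling, 113 and 260 with DESeq2's Wald test, 5 and 1 with only the 4 libraries compared, 166 and 340 without an expression filter, 14 and 27 with a stricter filter, 107 and 243 at an FDR below 0.05, 93 and 259 with the GC offset, and 82 and 228 with GC and length offsets. With the GC offset and only the 4 libraries, chosen after seeing the data, they were 49 and 119. Leaving out 1 library in turn gave 2 to 455 higher and 0 to 451 lower DEGs. Against the mean of the 3 untreated groups they were 233 and 369 with DESeq2, 369 and 458 without a filter, 395 and 449 at an FDR below 0.05, 173 and 328 with the GC offset and 154 and 324 with GC and length offsets, and 79 to 755 and 88 to 488 with 1 library left out.

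The labels do not say whether replicate numbers pair the samples, and the main fit did not pair them. The correlation of replicate 1 minus replicate 2 between groups over 12702 genes was 0.286 for WT and HERVH KD, -0.233 for WT and CHD7 knockout and 0.426 for WT and HERVH element deleted. With a replicate block there were 26 higher and 44 lower DEGs against WT and 160 and 183 against the untreated mean, and with block and GC offset 88 and 223, and 168 and 300.

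The 51 DEGs kept their direction wherever they were tested in these fits, which their lack of overlap between groups made likely beforehand. Among the genes named, MT1X turned, with -0.69 to 0.60 when 1 library was left out. The causes of the other differences between fits were not tested. Genes under 0.138 to 0.218 CPM lay at the floor. With 2 replicates the test recovered 35 of 105 simulated 2-fold changes, in a simulation without the larger spread of the HERVH KD libraries.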

Other observations

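Genes of sterol and fatty acid synthesis leaned to higher levels in HERVH KD. Of 33 tested, 1 rose at an FDR below 0.05 by edgeR, ACAT2, which makes acetoacetyl-CoA, with 70.9 and 105 CPM in WT and 140 and 216 CPM in HERVH KD (log2 change 1.01, SE 0.23, FDR 0.0361). Both KD values lay above both WT values in 18 of the 33 and below in 0, where 22.5% and 22.3% of all genes did so, and with the GC offset 9 rose and 0 fell. The lanosterol synthase gene LSS had 81.6 and 140 CPM in WT and 168 and 315 CPM in HERVH KD (1.12, FDR 0.0549, GC-corrected FDR 0.00291). In WT replicate 2 both genes stood above WT replicate 1, and in KD replicate 2 above KD replicate 1.

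Families encoded in clusters of similar genes were examined as well. Of 51 clustered protocadherins, adhesion proteins of neurons, 22 lay above both WT values and 4 below (22.5% and 22.3% of all genes), with a median log2 change of 0.29. Of the 51, 0 passed an FDR of 0.05 by edgeR or DESeq2, with 7 higher and 0 lower at an unadjusted p below 0.05. Of 426 ZNF genes tested, 5 rose and 5 fell by edgeR (1.17% each, against 0.618% and 1.53% of all genes). Of the 426, 147 lay above both WT values and 60 below. With the GC offset 41 ZNF genes rose (9.62%) and 13 fell (3.05%), against 3.64% and 5.33% of all genes. Their median log2 change was larger in KD replicate 1 (0.2) than in KD replicate 2 (0.06). ZNF239 was the DEG among them, at 5.4 and 9.63 CPM in WT and 27.4 and 27.1 CPM in HERVH KD. Members of these families share sequence, so reads may be split among copies.

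Cytosolic chaperone genes of the HSP70 system included 2 that rose of 25 tested, HSPA8 (0.84, FDR 0.0397 by edgeR) and its partner DNAJA1 (0.66, FDR 0.0407), and 0 fell by edgeR. The 2 that rose by edgeR were 8.0% of the list, against 0.618% of all genes. With the GC offset 2 rose and 2 fell (8.0% each, against 3.64% and 5.33% of all genes). In a fit of only the 4 libraries compared 0 rose and 0 fell. The median log2 change was 0.08 in KD replicate 1 and -0.07 in KD replicate 2. Of 34 p53 targets, TP53I3 rose (1.20, FDR 0.018) and RRM2B fell (-0.79, FDR 0.04) by edgeR. These were 2.94% each, against 0.618% and 1.53% of all genes. With the GC offset 2 p53 targets rose and 2 fell (5.88% each, against 3.64% and 5.33% of all genes). With only the 4 libraries compared, 0 rose and 0 fell.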
